A study of Homo sapiens with 2 samples.

Results

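The PML nuclear body genes and the SP100 family analysed here were PML, SP100, SP110, SP140, TRIM22 and DAXX. A probe counted as theirs where it was no control spot and the array files gave one of these symbols, or an older alias, as its gene name. The rule found 17 probes for the 6 genes among the 41000 probes of the array, and the 6 genes were among 19218 genes kept for analysis. All 17 probes passed the filter on dim probes and were well above background in all 4 channels, and none was saturated. There were 6 probes for PML, 5 for SP100, 2 each for SP140 and TRIM22, and 1 each for SP110 and DAXX.

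PML nuclear bodies are small protein assemblies in the nucleus, built on a scaffold of PML protein that carries the modifier SUMO. SP100 is a constant resident of these bodies, DAXX is a histone chaperone recruited to them by SUMO, and SP110 and SP140 are chromatin readers of the SP100 family. TRIM22 belongs to the same tripartite motif family of proteins as PML and is an antiviral factor. PML, SP100, SP110, SP140 and TRIM22 are known interferon-stimulated genes.

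The cells were PC3, an established line of aggressive prostate cancer grown from a bone metastasis. They received either Non-T siRNA, a duplex that targets no gene, or 1 of 2 duplexes against SUB1, a transcriptional coactivator, and total RNA was taken 72 h after the first of the transfections. Non-T RNA was labelled with Cy3 on both arrays, RNA of the SUB1 siRNA 1 cells with Cy5 on one array, and RNA of the SUB1 siRNA 2 cells with Cy5 on the other array of the same slide. Dyes were not swapped and each siRNA had 1 array, so knockdown and dye bias cannot be told apart at a probe, and the siRNAs share the Non-T control. The sources used here do not say whether both arrays received 1 extract of that control. In bulk RNA, fewer cells with a transcript and less of it per cell cannot be told apart.

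Each array held 45015 spots, and 25673 of the 41000 probes were kept. Depth was limited for dim probes, since gene spots had a median raw intensity of 128 (Non-T) and 116 (siRNA 1) on the first array and of 114 (Non-T) and 105 (siRNA 2) on the second, beside 86.5, 63.2, 78.6 and 61.2 for the negative control spots. Over probes spotted 10 times, the median SD of the log2 ratio between spots of 1 probe was 0.066 to 0.097, and this SD covers technical error within an array only. The targeted gene checked which channel held knockdown RNA, but it could not tell the siRNA 1 and siRNA 2 labels apart. At the brightest SUB1 probe the log2 ratio of knockdown over Non-T was -3.30 (siRNA 1) and -3.26 (siRNA 2), or 10.2% and 10.4% of the Non-T level, and the 4 SUB1 probes lay between -3.75 and -1.81 and between -3.50 and -1.57. All 5 epithelial markers (EPCAM, KRT8, KRT18, KRT19, CDH1) were kept. Among the leukocyte markers PTPRC, CD3D, MS4A1 and LYZ were not kept, and the 5 that were kept had log2 ratios of -0.04 to 0.10 and -0.31 to 0.13. Of the fibroblast markers COL1A2, COL3A1 and PDGFRB were not kept. The 10 reference genes had log2 ratios of -0.46 to 0.75 with siRNA 1 and -1.02 to 0.37 with siRNA 2.

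SP100, SP110 and SP140 lie close together on chromosome 2, and the bases before their starts are shown because these genes and their neighbour SP140L are described side by side. The sequences are RefSeq's, in build GRCh38.p14, on the plus strand and 5′ to 3′. Capitals mark AANNGAAA, a core bound by interferon regulatory factors, which reads as its reverse complement on this strand. Only matches that lie whole within the printed bases are capitalised.
between SP110 and SP140, chr2:230225637-230225735: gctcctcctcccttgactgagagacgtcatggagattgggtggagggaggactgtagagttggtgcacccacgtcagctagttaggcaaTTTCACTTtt
SP100, chr2:230416081-230416200: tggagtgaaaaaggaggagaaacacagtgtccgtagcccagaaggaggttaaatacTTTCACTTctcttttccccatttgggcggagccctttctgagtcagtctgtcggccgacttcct
SP140L, chr2:230327073-230327192: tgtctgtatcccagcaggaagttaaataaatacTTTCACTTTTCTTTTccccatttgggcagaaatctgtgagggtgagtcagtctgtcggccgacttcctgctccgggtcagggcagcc

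SP110 (minus strand) and SP140 (plus strand) start back to back, so the first sequence lies before the start of both, and the same capitals sit 10 to 3 bases before the SP140 start and 97 to 90 bases before the SP110 start. A further match overlaps these capitals and spans the SP140 start. It runs past the printed bases, so the closing tt of the first sequence belongs to it but is in lower case. In SP100 the match lies 64 to 57 bases before the start, and in SP140L an overlapping pair of matches lies 87 to 73 bases before it. The second window of SP110 also held the core, and the second window of SP100 did not. The 300-base RefSeq windows of SP100 (its first) and SP140L (250 bases before and 50 after the start) were 77.1% identical, over 253 of 328 aligned columns. This core was found in 22.8% of the 35116 promoter windows of the RefSeq table. The longer interferon-stimulated response core, GAAANNGAAA, holds the shorter core within it. It was found on neither strand of the windows of SP100, SP110, SP140 and SP140L, beside 3.57% of all windows. The gamma-activated site core, TTCNNNGAA, was found in 1 of 2 windows of SP110 and in no window of the others, beside 7.66% of all windows. No window was read for PML, TRIM22 or DAXX.

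With SUB1 siRNA 2, TRIM22 was the member with the highest ratio and the only member gene past 2-fold, joined by SP140 in 3 other ways of processing. With SUB1 siRNA 1 no member gene was past 2-fold. The member genes at least 2-fold higher were 0 of 6 with siRNA 1, beside 0.208% of all genes, and 1 of 6 with siRNA 2, beside 0.614%. No member gene was at least 2-fold lower on either array, where 0.609% (siRNA 1) and 1.07% (siRNA 2) of all genes were. Counted by probe, 0 of 17 with siRNA 1 and 1 of 17 with siRNA 2 were at least 2-fold higher, beside 0.195% and 0.526% of all probes. From Feature Extraction's processed signals, from the authors' log2 ratios or with median centring of the arrays instead of loess, SP140 also passed 2-fold with siRNA 2 and the count was 2 of 6 genes. In these settings 994, 148 and 266 of all 19218 genes, in the same order, were at least 2-fold higher with siRNA 2. In each of them TRIM22 probe A_24_P172481, SP140 probe A_24_P328504 and SP100 probes A_24_P916816 and A_23_P209712 were also past 2-fold with siRNA 2. From the processed signals A_24_P916816 was past 2-fold with siRNA 1 as well (log2 ratio 1.01). The share of all probes past 2-fold was not counted in these settings. The 0.614% above stands for 118 genes.

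Log2 ratios above 0 were found for 8 of 17 member probes with siRNA 1 and for 14 of 17 with siRNA 2, beside 52.5% and 52.4% of all kept probes. With median centring these were 13 and 16 of 17, but the median of all genes also rose there, to 0.13 (siRNA 1) and 0.12 (siRNA 2). The share of all probes above 0 was not counted in that setting. In 14 of 17 member probes siRNA 2 gave the higher ratio, beside 49.998% of all kept probes, and for 14 or 15 of 17 in each of the other 6 ways of processing run by probe. With 1 probe per gene, the median member gene had a log2 ratio of -0.14 with siRNA 1, which turned to 0.034 with median centring and to 0.064 with the mean of all probes of a gene, and of 0.47 with siRNA 2. The median of all genes was 0.02 on both arrays with loess. These counts describe 2 arrays that share their control, and probes of 1 gene are not replicates.

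**Figure D1:**
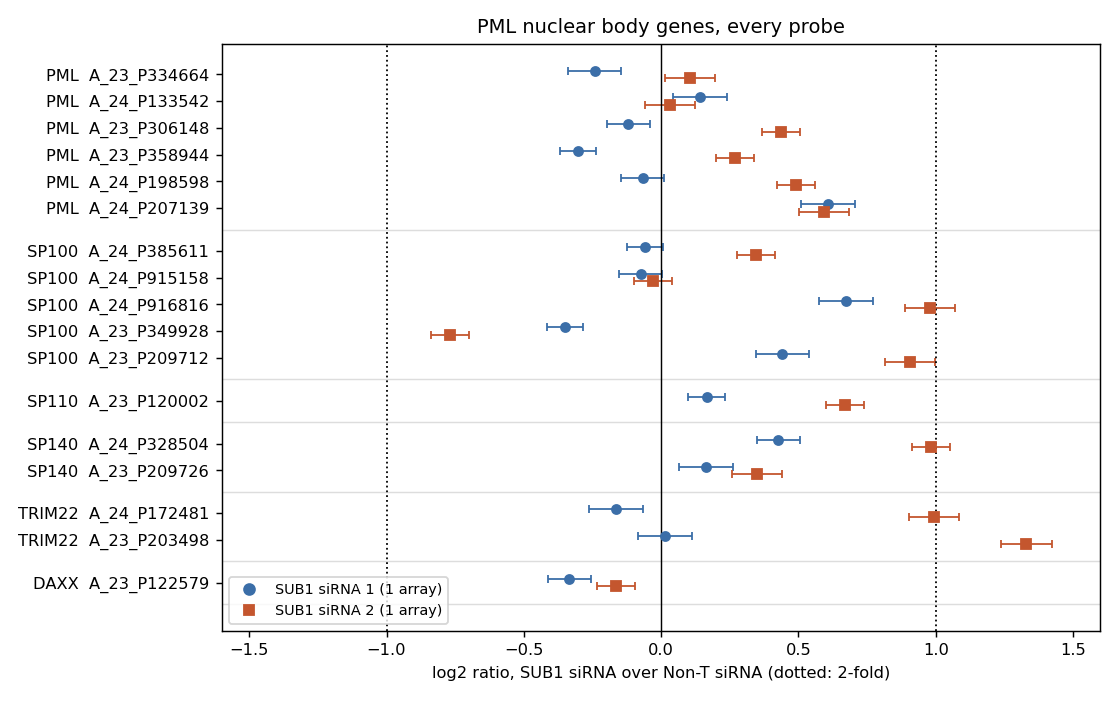
Log2 ratio of knockdown over Non-T for each of the 17 probes, listed by gene and, within a gene, in the order of transcription, with siRNA 1 as blue circles and siRNA 2 as orange squares (1 array each). Bars are the median SD between spots of probes of like intensity spotted 10 times, and dotted lines mark 2-fold. The TRIM22 pair lies near 0 with siRNA 1 and at 0.99 and 1.33 with siRNA 2, and SP100 probe A_23_P349928 is the lowest on both arrays.

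TRIM22 restricts the transcription and replication of several viruses. Its probes lie side by side on the plus strand of chromosome 11, at chr11:5688167-5688226 (A_24_P172481) and chr11:5688228-5688287 (A_23_P203498) of build hg18, the build named in the array files. For A_23_P203498 the normalized log2 intensity was 7.02 (Non-T) and 7.04 (siRNA 1) on the first array and 7.05 (Non-T) and 8.38 (siRNA 2) on the second. The siRNA 2 sample was the high one, and the 3 others lay between 7.02 and 7.05. The log2 ratio was 0.01 with siRNA 1 (1.01-fold), which turned to -0.003 from the processed signals, and 1.33 with siRNA 2 (2.52-fold).

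The second TRIM22 probe, A_24_P172481, was at 6.98 (Non-T) and 6.81 (siRNA 1) and at 6.97 (Non-T) and 7.97 (siRNA 2). Again only the siRNA 2 sample stood above the rest, with a log2 ratio of -0.16 for siRNA 1 and 0.99 for siRNA 2 (1.99-fold). The difference between the siRNAs was 1.32 and 1.16 at the 2 probes, which is larger than the SD between spots of dim probes, 0.09 to 0.10. That SD is of 1 ratio within an array, so it does not measure the spread of a difference between arrays or cultures. Both probes were dim in 3 of the 4 channels, with raw intensities of 122 to 151 there and of 248.6 and 339 with siRNA 2. Over the alternatives run by probe, the siRNA 2 ratio ranged from 1.24 to 1.86 for A_23_P203498 and from 0.96 to 1.61 for A_24_P172481. Only 27 of 19218 genes had a higher ratio than TRIM22 with siRNA 2.

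**Figure D2:**
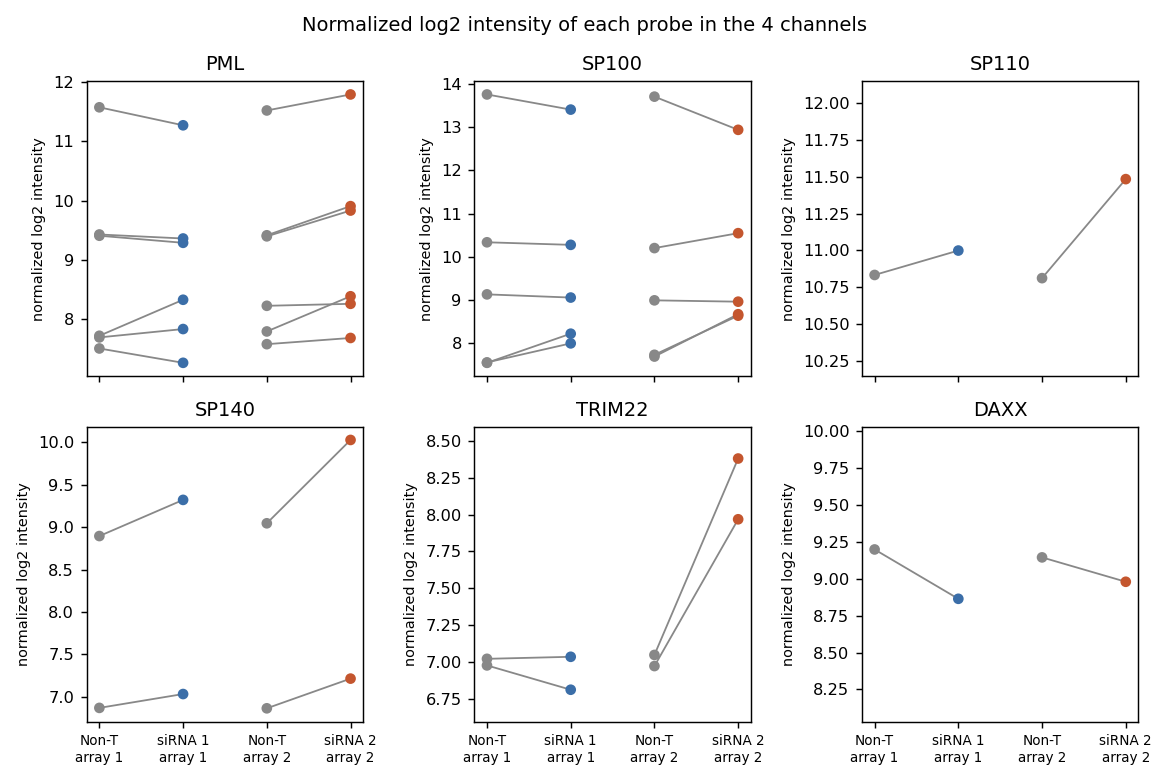
Normalized log2 intensity of each probe in the 4 channels, one panel per gene, each with its own vertical scale and a line joining the 2 channels of an array (grey, Non-T; blue, SUB1 siRNA 1; orange, SUB1 siRNA 2). For TRIM22 only the siRNA 2 point stands apart (8.38 and 7.97).

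SP110 and SP140 read chromatin through bromodomain and PHD finger modules, and SP140 is best known from immune cells. The SP110 probe (A_23_P120002, minus strand, chr2:230750505-230750564, hg18) gave log2 intensities of 10.83 (Non-T) and 11.00 (siRNA 1), and of 10.81 (Non-T) and 11.48 (siRNA 2). Both knockdown samples were above their Non-T samples, and siRNA 2 was the highest of the 4. The log2 ratio was 0.17 with siRNA 1 (1.12-fold) and 0.67 with siRNA 2 (1.59-fold), and kept its sign on both arrays in all ways of processing run by probe, with ranges of 0.14 to 0.41 and 0.67 to 0.93.

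SP140 had its brighter probe, A_24_P328504, at chr2:230842882-230843573 on the plus strand (hg18). These 692 bases are longer than a 60-base probe, so the probe crosses a splice junction. Its log2 intensities were 8.90 (Non-T) and 9.32 (siRNA 1), and 9.05 (Non-T) and 10.03 (siRNA 2). Both knockdown samples were above both Non-T samples. The log2 ratio was 0.43 with siRNA 1 (1.34-fold) and 0.98 with siRNA 2 (1.98-fold), just under the 2-fold line, with ranges over the ways of processing of 0.39 to 0.62 and 0.96 to 1.19. The other SP140 probe, A_23_P209726 (chr2:230885750-230885809), was dim, at 6.87 (Non-T) and 7.03 (siRNA 1) and at 6.86 (Non-T) and 7.21 (siRNA 2). Its log2 ratios were smaller, 0.16 with siRNA 1, which turned to -0.03 from the processed signals, and 0.35 with siRNA 2.

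SP100 recruits heterochromatin proteins and restrains incoming viral genomes, and its transcript is spliced into several isoforms. Its 5 probes lay on both sides of 0. Along the plus strand of chromosome 2 (hg18) they began at positions 231039281 (A_24_P385611), 231042759 (A_24_P915158), 231046687 (A_24_P916816), 231088734 (A_23_P349928) and 231116367 (A_23_P209712). The probe with the highest intensity, A_23_P349928, is labelled transcript variant 2. Its log2 intensities were 13.76 (Non-T) and 13.41 (siRNA 1), and 13.71 (Non-T) and 12.94 (siRNA 2). The knockdown samples were below both Non-T samples. The log2 ratio was -0.35 with siRNA 1 (0.78-fold), which turned to 0.004 with median centring, and -0.77 with siRNA 2 (0.59-fold; range -0.77 to -0.41).

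SP100 probes A_24_P916816 and A_23_P209712 stood on the other side. The first gave 7.54 (Non-T) and 8.22 (siRNA 1), and 7.69 (Non-T) and 8.67 (siRNA 2), with log2 ratios of 0.67 and 0.98. The second, labelled transcript variant 1, gave 7.55 (Non-T) and 7.995 (siRNA 1), and 7.73 (Non-T) and 8.64 (siRNA 2), with log2 ratios of 0.44 and 0.91. At both probes the knockdown samples were above both Non-T samples, and siRNA 2 was the highest. Both signs held in all ways of processing run by probe, and with siRNA 2 both passed 2-fold in 3 of them. With siRNA 1 the first passed it from the processed signals only, at 1.01.

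The remaining SP100 probes differed less. A_24_P385611, also labelled variant 2, gave 10.34 (Non-T) and 10.28 (siRNA 1), and 10.20 (Non-T) and 10.55 (siRNA 2). Its log2 ratio was -0.06 with siRNA 1, which turned positive in 3 ways of processing, and 0.35 with siRNA 2. A_24_P915158 gave 9.13 (Non-T) and 9.06 (siRNA 1), and 8.99 (Non-T) and 8.96 (siRNA 2), with ratios of -0.07 and -0.03 that both turned positive with median centring and were smaller than or near the SD between spots. The SP100 gene value therefore depended on the probe. With siRNA 2 it was -0.77 by the brightest probe, 0.35 by the next brightest (a choice made after the values were seen) and 0.29 by the mean of the 5. With siRNA 1 the same 3 values were -0.35, -0.06 and 0.13.

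PML is the scaffold of the bodies and is itself spliced into many isoforms that differ at their ends. Its 6 probes lie on the plus strand of chromosome 15 (hg18), and 2 of 6 had a ratio above 0 with siRNA 1 and 6 of 6 with siRNA 2. Medians over the probes were -0.09 and 0.35. The brightest probe, A_23_P358944 (chr15:72115728-72115787, transcript variant 5), gave log2 intensities of 11.57 (Non-T) and 11.27 (siRNA 1), and 11.52 (Non-T) and 11.79 (siRNA 2). The siRNA 1 sample was the lowest and the siRNA 2 sample the highest of the 4. The log2 ratios were -0.30 and 0.27, with ranges over the ways of processing of -0.32 to -0.05 and 0.25 to 0.55. They were opposite in sign in all of them, but with median centring the siRNA 1 ratio was -0.047. That is smaller than the SD between spots, 0.066.

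PML probes A_23_P306148 (which starts at 72112803 and crosses a splice junction) and A_24_P198598 (72122474-72122533) had the same order. The first gave 9.41 (Non-T) and 9.29 (siRNA 1), and 9.40 (Non-T) and 9.83 (siRNA 2), with log2 ratios of -0.12 and 0.44. The second gave 9.43 (Non-T) and 9.36 (siRNA 1), and 9.41 (Non-T) and 9.91 (siRNA 2), with log2 ratios of -0.07 and 0.49. At both, siRNA 2 stood above the 3 others, and the siRNA 1 ratio turned positive with median centring.

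The most downstream PML probe, A_24_P207139 (72125940-72125999, transcript variant 1), was the PML probe at which the siRNAs gave the closest ratios. It was at 7.72 (Non-T) and 8.33 (siRNA 1), and at 7.79 (Non-T) and 8.39 (siRNA 2), with log2 ratios of 0.61 and 0.59. Both knockdown samples were above both Non-T samples. The pair of upstream probes was dim. A_23_P334664 (variant 8) gave 7.504 (Non-T) and 7.26 (siRNA 1), and 7.58 (Non-T) and 7.68 (siRNA 2), with ratios of -0.24 and 0.10. These opposite signs held in all ways of processing run by probe, with ranges of -0.38 to -0.12 and 0.07 to 0.21. The siRNA 2 ratio was near the SD between spots, 0.09, and in some of these ways below it. A_24_P133542 (variant 6) gave 7.69 (Non-T) and 7.83 (siRNA 1), and 8.22 (Non-T) and 8.26 (siRNA 2), with ratios of 0.14 and 0.03. At A_24_P133542 both channels were higher on the siRNA 2 array, by 0.53 for Non-T, where the SD of this difference over all kept probes was 0.12, and by 0.43 for Cy5.

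DAXX deposits the histone variant H3.3 together with ATRX and is held in the bodies by SUMO. Its probe (A_23_P122579, minus strand, chr6:33395238-33395297, hg18) gave 9.20 (Non-T) and 8.86 (siRNA 1), and 9.14 (Non-T) and 8.98 (siRNA 2). Both knockdown samples were below both Non-T samples. The log2 ratio was -0.33 with siRNA 1 (0.79-fold) and -0.17 with siRNA 2 (0.89-fold), the latter turning to 0.03 with median centring.

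For each gene limma tested whether the average of the siRNA 1 and siRNA 2 ratios differed from 0, with Benjamini-Hochberg adjustment over all 19218 genes. No member passed an adjusted p of 0.05. Of all genes tested, 1 did, SUB1 itself (and none in 6 of the alternatives), which is 0.0052% of those tested, and none was called higher, while 4013 genes had an unadjusted p below 0.05. SP100 (by its brightest probe), SP110 and SP140 were among the latter, 3 of 6 members beside 4013 of 19218 genes.

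The mean of SP140 was 0.70 ± 0.16 (SE, 2 arrays), with a limma adjusted p of 0.142 (0.0792 to 0.269 over the alternatives). SP100, by its brightest probe, had a mean of -0.56 ± 0.14 (limma adjusted p = 0.150; 0.121 to 0.577), which turned to 0.14 without that probe and to 0.21 with the mean of the 5. The mean of SP110 was 0.42 ± 0.15 (limma adjusted p = 0.231; 0.0958 to 0.287). Each SE rests on 2 ratios per gene and on the variance that limma shares over all genes. TRIM22, with the widest gap between the siRNAs, had a mean of 0.67 ± 0.33 (limma adjusted p = 0.313; 0.245 to 0.372). The limma adjusted p was 0.264 for DAXX (0.246 to 0.743), with a mean of -0.25 ± 0.10, and 0.963 for PML (0.401 to 0.970), with a mean of -0.02 ± 0.17 that turned positive in 4 alternatives. This test takes the siRNAs as 2 knockdowns of SUB1 and leaves out the spread of the Non-T control and any dye bias.

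The gap between the siRNAs lay in the Cy5 channel for most member probes. Between the arrays the Cy3 intensity, Non-T on both, differed by a median of 0.05 in absolute size over the 17 probes (-0.14 to 0.53). The Cy5 intensity was higher with siRNA 2 by a median of 0.45, where the SD of the Cy5 difference over all kept probes was 0.30. The Cy5 difference was widest at the TRIM22 probes, 1.34 and 1.15, followed by 0.71 at SP140 probe A_24_P328504 and 0.64 at SP100 probe A_23_P209712. It was negative at A_23_P349928 of SP100 (-0.47) and at A_24_P915158 of SP100 (-0.10). Whether the siRNAs differ beyond the spread between cultures was not tested, since each had 1 array.

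Partner genes of the bodies had medians close to that of all genes on both arrays after loess. This list holds 35 genes of SUMO conjugation, histone chaperoning and other proteins found in the bodies, and 34 were kept (not HIPK3). Their median log2 ratio was 0.04 with siRNA 1 and 0.03 with siRNA 2, with 20 and 18 of 34 above 0, beside 54.1% and 53.6% of all genes. None was past 2-fold with siRNA 1, where 0.208% of all genes were higher and 0.609% lower. With siRNA 2, 1 was lower, beside 1.07% of all genes, and 0 higher, beside 0.614%. That gene was BLM, a DNA helicase found in the bodies, with log2 ratios of -0.56 and -1.12 (limma adjusted p = 0.128). HIRA, a chaperone of histone H3.3, had ratios of 0.51 and 0.94 (limma adjusted p = 0.127). SENP6, a protease that removes SUMO chains, had ratios of -0.47 and -0.34 (limma adjusted p = 0.150).

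Relatives of the members, 15 genes of the SP100 and TRIM families, were all kept and had medians of 0.04 and 0.18, with none past 2-fold. Above 0 were 10 and 11 of 15, beside 54.1% and 53.6% of all genes. TRIM26, an antiviral ubiquitin ligase, had ratios of 0.19 and 0.78 (limma adjusted p = 0.217). TRIM33, a chromatin reader of SMAD signalling, had 0.31 and 0.51 (limma adjusted p = 0.157). SP140L, the neighbour of SP140 and SP100 whose upstream sequence is printed with theirs, had 0.14 and 0.81 (limma adjusted p = 0.248). Its probe A_24_P337012 gave log2 intensities of 7.06 (Non-T) and 7.20 (siRNA 1), and 6.82 (Non-T) and 7.63 (siRNA 2). Its other probe, A_23_P337753, gave 6.75 (Non-T) and 6.91 (siRNA 1), and 6.95 (Non-T) and 7.31 (siRNA 2), with ratios of 0.16 and 0.36. The siRNA 2 sample was the highest at both probes, and the order of the 3 others was not the same. From the first array to the second, Non-T differed by -0.24 and Cy5 by 0.43 at A_24_P337012. At A_23_P337753 these differences were 0.20 and 0.41. The SD of the Non-T difference over all kept probes was 0.12. Both probes were dim, with raw Non-T intensities of 117 to 156.

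Interferon signalling genes (receptors, kinases, STAT and IRF factors and their inhibitors) had 15 of 16 kept (not IFNAR2), none past 2-fold, with medians of -0.04 and 0.20. Above 0 were 6 and 11 of 15, beside 54.1% and 53.6% of all genes. The siRNA 1 median turned positive with median centring and with the authors' ratios. IRF9, the DNA-binding part of the interferon-activated complex ISGF3, had 0.54 and 0.62 (limma adjusted p = 0.113). IFNGR1, a receptor chain for interferon gamma, had 0.26 and 0.49 (limma adjusted p = 0.180), and SOCS1, an inhibitor of the pathway, 0.15 and 0.41 (limma adjusted p = 0.257).

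Interferon-stimulated genes outside the 6 members had medians that lay further apart between the siRNAs. Of 44 listed, 42 were kept (not CMPK2 and CXCL10). With siRNA 1, 0 were past 2-fold, beside 0.208% of all genes higher and 0.609% lower. With siRNA 2, 13 were at least 2-fold higher, beside 0.614% of all genes. The list was chosen with earlier results of these data known, so its counts are description only. Medians were -0.03 with siRNA 1, which turned positive with median centring and with the authors' ratios, and 0.68 with siRNA 2. Above 0 were 18 and 40 of 42, beside 54.1% and 53.6% of all genes. RSAD2, which makes an antiviral nucleotide, had 0.05 and 2.42 (limma adjusted p = 0.295). RTP4, a chaperone of membrane receptors, had 0.67 and 2.01 (limma adjusted p = 0.150), and ISG15, a ubiquitin-like modifier, 0.67 and 1.83 (limma adjusted p = 0.144). TRIM22 at 1.33 thus lay within the range of these 42 genes with siRNA 2, -0.29 to 2.42. No gene of any of the lists passed the limma threshold.

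**Figure D3:**
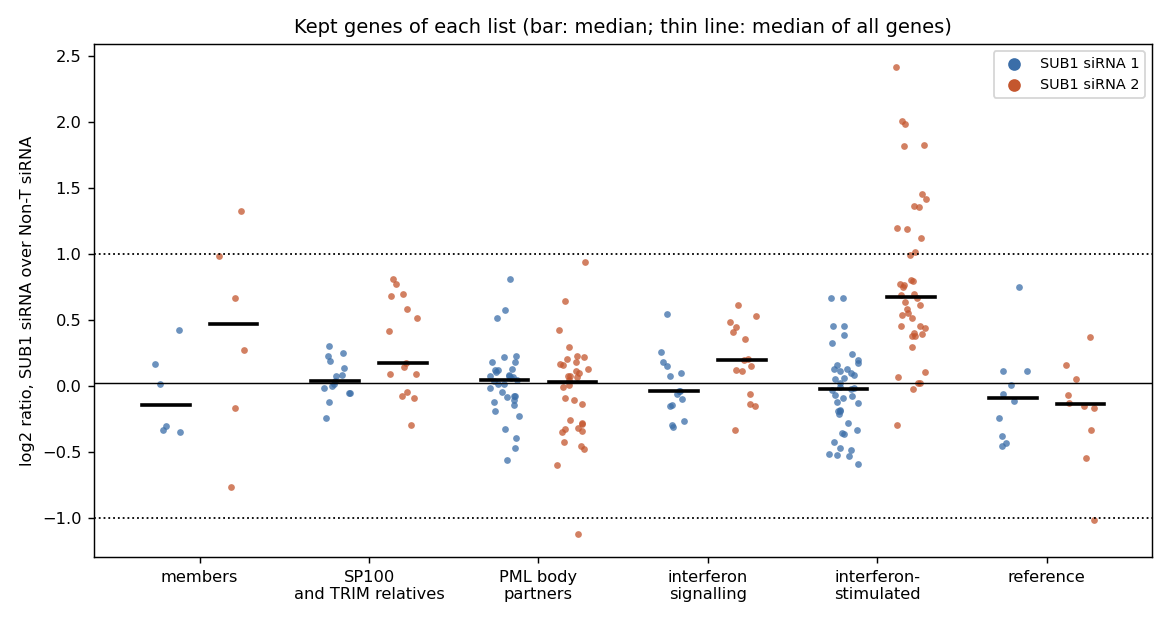
Log2 ratio of knockdown over Non-T for the kept genes of the members and of 5 lists, 1 point per gene, with siRNA 1 in blue and siRNA 2 in orange (1 array each). Bars are medians, the thin line is the median of all genes and dotted lines mark 2-fold. The medians of the members (-0.14 and 0.47) and of the interferon-stimulated genes (-0.03 and 0.68) lie apart between the siRNAs, and those of the PML body partners (0.04 and 0.03) do not.

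The genes whose pair of ratios was nearest to that of TRIM22, by Euclidean distance over the 2 arrays, were NUPR1 (0.04 and 1.32, distance 0.028), BATF2 (-0.02 and 1.43, 0.102), PRR15 (0.13 and 1.26, 0.140), MYPN (0.13 and 1.43, 0.147) and SAMD9L (-0.12 and 1.20, 0.187). The likeness rests on 2 ratios per gene that share the Non-T control.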

How the data were processed

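RNA of PC3 cells was compared on 2 two-colour Agilent arrays of 1 slide. The authors deposited the spot intensity of both channels, the local background and the spot flags, as given by Agilent Feature Extraction 9.5.1.1, and a value table of log2 ratios that the authors had normalized by loess on each array. The latter served as an alternative; set against the scanner files it runs as Cy5 over Cy3, with a slope of 1.01 and 1.02, medians of -0.005 and -0.007 and a correlation across probes of 0.958 and 0.970. How the authors centred it further is not given in the sources used here.

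Mean spot signals were background-corrected by normexp (offset 50), control spots and outlier-flagged spots were dropped, and ratios were normalized by loess (span 0.3) in limma 3.58.1 (R 4.3.3). For the log2 intensities of single channels and their differences between arrays, limma's Aquantile method then gave both arrays the same distribution of average intensity. The ratios did not use that step. Probes stayed in if, on both arrays, 1 channel or more had a share of at least 0.5 of their spots flagged well above background, and each gene was read from its brightest probe by mean log2 intensity. Genes were named through a RefSeq table of GRCh38.p14 (13129 of 19218; 6089 kept the name in the files). Probe coordinates are those of hg18 in the files, which were set against no gene model. A gene counted as changed at 2-fold on an array. limma's lmFit and eBayes, with Benjamini-Hochberg adjustment, tested the mean of both ratios against 0. The procedure was also run on simulated ratios that were independent between arrays and free of dye bias. That run could not check the effect of the shared Non-T control or of dye bias.

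The lists were PML body partners, SP100 and TRIM relatives, interferon signalling, interferon-stimulated, reference genes and epithelial, androgen-driven prostate, leukocyte and fibroblast markers. Members and lists were chosen with earlier results of these data known. The text names SUB1, every member probe, from each list the 3 genes whose mean ratio was largest in absolute size (reference and marker lists as ranges, with only markers not kept named, of which some are not reported here) and the 5 genes nearest to TRIM22. The 4 kept androgen-driven prostate markers had log2 ratios of -0.003 to 0.30 and -0.03 to 0.24, the 5 epithelial markers -0.07 to 0.59 and -0.23 to 0.22, and the 3 kept fibroblast markers -0.19 to 0.66 and -0.23 to 0.45. The search for AANNGAAA was added after the promoter windows were seen. Alternatives were no background correction, median spot signals, median centring, processed signals, the authors' ratios, other filters and probe summaries, and a trended, robust prior. Precision is limited throughout by the number of arrays.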

Additional observations from a re-analysis of the deposited data

Results flagged for a closer look

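The following values had opposite signs on the arrays, and with 1 array per siRNA none of these differences was tested. PML probe A_23_P334664 stood at 0.10 (log2 ratio, siRNA 2) and -0.24 (siRNA 1). PML probe A_23_P306148 had 0.44 and -0.12, A_23_P358944 had 0.27 and -0.30, and A_24_P198598 had 0.49 and -0.07, in the same order. SP100 probe A_24_P385611 had 0.35 with siRNA 2 and -0.06 with siRNA 1. The values of 0.10, -0.07 and -0.06 among these were below or near the SD between spots, 0.066 to 0.097. TRIM22 probe A_24_P172481 had 0.99 with siRNA 2 and -0.16 with siRNA 1, the widest such gap among the member probes. The median member gene stood at 0.47 with siRNA 2 and -0.14 with siRNA 1. The median of the interferon-stimulated genes was 0.68 and -0.03, and that of the interferon signalling genes 0.20 and -0.04.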

How the results depend on the processing

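Of 151 recomputed values that answer a comparison, 123 stayed within 1.5 times (counts) or within 0.097 (log2 values, the widest SD between spots). Of 120 recomputed log2 ratios of single member genes 96 stayed within 0.097, and 8 changed sign (4 of SP100, 2 of TRIM22 with siRNA 1, and 1 each of PML with siRNA 1 and DAXX with siRNA 2). Of 66 recomputed limma means 53 did and 6 changed sign (4 of PML and 2 of SP100), and none passed the threshold. Looser or stricter probe filtering and retaining flagged outlier spots left every member's ratio and mean unchanged. Dropping the brightest SP100 probe left the other members unchanged, and averaging probes left SP110 and DAXX, with 1 probe each. The trended, robust prior changed no mean. The 151 values include such cases too, SUB1 among them. All of these were counted as having stayed, so the counts overstate stability. The causes of the moves were not tested. With median centring instead of loess, the median of all genes was 0.13 (siRNA 1) and 0.12 (siRNA 2) against 0.02 in the report. Values of siRNA 1 and siRNA 2 there were -3.04 and -2.997 for SUB1, 0.034 and 0.74 for the median member gene (-0.09 and 0.62 relative to the median of all genes), 0.23 and 0.20 for PML body partners, 0.17 and 0.40 for SP100 and TRIM relatives and 0.22 and 0.92 for interferon-stimulated genes, and the siRNA 1 median of interferon signalling was 0.19. The authors' log2 ratios gave -3.15 for SUB1 with siRNA 2, 0.14 for the relatives with siRNA 1 and 0.077 and 0.79 for interferon-stimulated genes. The mean of all probes gave SUB1 -3.05 and -2.87 and a median member gene of 0.064 with siRNA 1. Without the brightest SP100 probe, an alternative chosen after seeing the data, that median was -0.023. Member genes past 2-fold with siRNA 2 numbered 2 in place of 1 (TRIM22 and SP140) with processed signals, median centring or the authors' ratios. Genes past the limma threshold numbered 0 in place of 1 in 6 settings, with 3902 (processed signals), 5707 (median centring), 4023 (median spot signals), 4077 (no background correction), 4141 (the authors' ratios) and 3528 (trended, robust prior) at an unadjusted p below 0.05. Genes at least 2-fold higher and lower numbered 40 and 117 with siRNA 1 and 118 and 205 with siRNA 2 in the report, 137 and 56, and 266 and 101, with median centring, 778 and 298, and 994 and 474, from processed signals, 58 and 100, and 148 and 164, from the authors' ratios. No paired analysis was possible because a ratio on 1 array is itself a comparison of a SUB1 siRNA with Non-T RNA and the groups have no replicate numbers to share. The slide was not run as a block, since there was 1 slide, and leaving out an array leaves the other siRNA's value, printed beside it, with no residual degrees of freedom for a test. Signal limits the dim probes, among them those of TRIM22 and SP140 probe A_23_P209726, whose raw Non-T intensities were 119.99 to 151 beside 86.5 and 78.6 for negative control spots.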
